A study of Mus musculus with 4 samples.

Results

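The cathepsins described here are 10 lysosomal protease genes, Ctsa, Ctsb, Ctsc, Ctsd, Ctse, Ctsh, Ctsk, Ctsl, Ctss and Ctsz, among 18193 mouse genes measured on microarrays. They were taken by name, as every probe set whose annotation gives 1 of these symbols alone, which found 22 of the 45101 probe sets. On these arrays several short probes, taken as a set, read each transcript. Bone marrow cells of C57BL/6 mice were grown for 5 days in medium with 10% L929 cell supernatant, which supplies macrophage colony-stimulating factor and turns bone marrow precursors into macrophages. The 4 groups had 1 array each: cells lacking both Hes1 and Hey1 (DKO) with lipopolysaccharide (LPS), wild-type (WT) cells with LPS, untreated DKO cells and untreated WT cells. LPS, the bacterial ligand of the receptor TLR4, was given at 2 ng/ml for 3 h. Hes1 and Hey1 encode transcriptional repressors downstream of Notch. How the knockouts were made, and in which cells they act, are not given in the sources used here.

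Cathepsins are made as inactive precursors, tagged with mannose 6-phosphate or carried by other sorting receptors to the lysosome, and activated there by acid and by each other. In macrophages they degrade engulfed protein, trim antigens for presentation and, when secreted, cut matrix proteins. Most members here are cysteine proteases of the papain family (Ctsb, Ctsc, Ctsh, Ctsk, Ctsl, Ctss and Ctsz), Ctsd and Ctse are aspartic proteases, and Ctsa is a serine carboxypeptidase. Cystatins inhibit the cysteine members, and transcription factors of the MiT/TFE family activate many lysosomal genes through a motif built on CACGTG.

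No difference below has a replicate check, no test was possible, and the number of arrays limits the precision. Values are intensities in arbitrary units on a linear scale, and a gene counts as higher or lower in one group when its array differs by at least 2-fold, a log2 difference of 1. A gene is read by its brightest probe set unless another is named, and values under a floor of 52.9 units are treated as that floor. All 10 cathepsins lay above the floor on all 4 arrays. The median probe set gave 50.8 units in DKO and 50.9 in WT cells with LPS, and 51.0 in DKO and 59.1 in WT cells without. Hes1 gave 5.80 units in DKO and 26.7 in WT cells with LPS, and 2.14 in DKO and 45.4 in WT cells without. Hey1 gave 10.2 units in DKO and 17.3 in WT cells with LPS, and 9.17 in DKO and 57.2 in WT cells without. All these values but Hey1 in untreated WT cells lie under the floor and have no order, so they check the genotype labels only weakly, and the sources do not say whether the probes lie inside the deletions. All 10 macrophage markers passed the floor on at least 1 array, among them Csf1r, Adgre1 and Cd68.

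Promoters of 4 cathepsins are shown because the data set them side by side: Ctsk differed between genotypes, Ctss is its direct chromosomal neighbour and did not, and Ctsa and Ctsd carry the 8-base form of the MiT/TFE motif. Each runs from 250 bases before to 50 after the gene start, 5′ to 3′ on the gene's own strand, as given by RefSeq for build GRCm38.p6. Capitals mark matches to any motif searched on both strands. The motifs were the E-box CACGTG, its extension TCACGTGA, the Hes-type sites CACGCG and CACNAG, the interferon response element (GAAA, any 2 bases, GAAA), the PU.1 site GAGGAAGT, the AP-1 site TGANTCA and the NF-kB consensus. The windows are chr3:95498960-95499259 (+) for Ctsk, chr3:95526536-95526835 (+) for Ctss, chr2:164833523-164833822 (+) for Ctsa and chr7:142387778-142388077 (-) for Ctsd.
Ctsk: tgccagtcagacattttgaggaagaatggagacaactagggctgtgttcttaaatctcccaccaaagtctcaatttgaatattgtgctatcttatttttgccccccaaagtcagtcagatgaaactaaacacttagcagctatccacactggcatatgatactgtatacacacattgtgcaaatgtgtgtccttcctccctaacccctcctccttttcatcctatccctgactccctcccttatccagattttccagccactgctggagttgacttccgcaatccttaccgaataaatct
Ctss: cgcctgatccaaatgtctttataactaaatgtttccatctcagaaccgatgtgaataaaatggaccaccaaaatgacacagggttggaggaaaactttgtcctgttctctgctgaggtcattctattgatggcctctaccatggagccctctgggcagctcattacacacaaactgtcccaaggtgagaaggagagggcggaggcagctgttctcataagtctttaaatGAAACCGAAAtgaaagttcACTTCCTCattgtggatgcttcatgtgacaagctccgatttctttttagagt
Ctsa: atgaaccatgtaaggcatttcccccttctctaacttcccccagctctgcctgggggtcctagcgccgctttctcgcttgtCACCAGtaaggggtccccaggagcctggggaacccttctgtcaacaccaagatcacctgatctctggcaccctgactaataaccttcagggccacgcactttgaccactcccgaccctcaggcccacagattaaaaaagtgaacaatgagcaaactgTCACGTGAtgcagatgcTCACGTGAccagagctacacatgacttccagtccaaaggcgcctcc
Ctsd: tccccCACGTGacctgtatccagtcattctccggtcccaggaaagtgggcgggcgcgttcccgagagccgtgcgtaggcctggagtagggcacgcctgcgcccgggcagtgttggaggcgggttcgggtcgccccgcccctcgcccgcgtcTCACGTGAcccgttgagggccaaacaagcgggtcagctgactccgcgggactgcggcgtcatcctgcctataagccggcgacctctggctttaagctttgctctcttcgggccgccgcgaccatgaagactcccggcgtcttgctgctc

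The reference table held 8 windows for 7 of the cathepsins, 2 of them for Ctsa, and every promoter share below is over all 32851 windows of that length. TCACGTGA, which contains the E-box, occurred in 2 of the 8 windows, those of Ctsa and Ctsd, and in 0.974% of all windows. Ctsa carries it at 2 places, starting 13 bases before and at base 5 after the gene start. The E-box alone also occurred in Ctsl, making 3 windows, against 7.15% of all. CACGCG occurred in none of the 8 windows (9.27% of all) and CACNAG in those of Ctsa, Ctsc and Ctsz (42.5% of all). The interferon response element occurred in Ctss alone, as GAAACCGAAA starting 21 bases before the gene start (3.44% of all), and GAGGAAGT in Ctsc and Ctss (3.20% of all). The AP-1 site occurred in none (7.81% of all) and the NF-kB consensus in Ctsz (5.80% of all). The window of Ctsk held no match to any of these motifs. These matches describe the letters only and show no binding.

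The comparison of DKO with WT cells asks what the loss of both repressors changes, first under LPS and then at rest. Ctsk, the collagen-degrading protease best known from osteoclasts, was the cathepsin that differed by its brightest probe set. It gave 365 units in DKO cells with LPS against 1089 in WT cells with LPS, and 514 in untreated DKO cells against 1096 in untreated WT cells. Both DKO arrays read below both WT arrays. Ctsk was 2.98-fold lower with LPS (log2 difference -1.58) and 2.13-fold lower without (-1.09). By their brightest probe sets the other 9 cathepsins lay between -0.33 and 0.22 with LPS and between -0.02 and 0.41 without. Dimmer probe sets of Ctsc read 2.03-fold and 2.67-fold higher in DKO than in WT cells with LPS.

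In each genotype comparison 1 of 10 cathepsins was lower and 0 were higher by the brightest probe set. Over all 11236 genes with a difference under LPS 1.78% passed 2-fold, 0.934% lower and 0.845% higher, and over 11380 without LPS 1.45% did, 0.984% lower and 0.466% higher. Ctsk was 1 of 22 genes lower in both comparisons, or 0.204% of 10787, and these comparisons share no array. With LPS, 11 of 11236 genes read as low as Ctsk or lower, itself included, and without LPS 68 of 11380. Ctsk has 1 probe set on these arrays, so no second one checks its value. With array medians set equal, Ctsk stood at -0.88 without LPS, short of 2-fold. In bulk RNA, fewer cells that express a gene and less RNA per cell cannot be told apart.

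**Figure D1:**
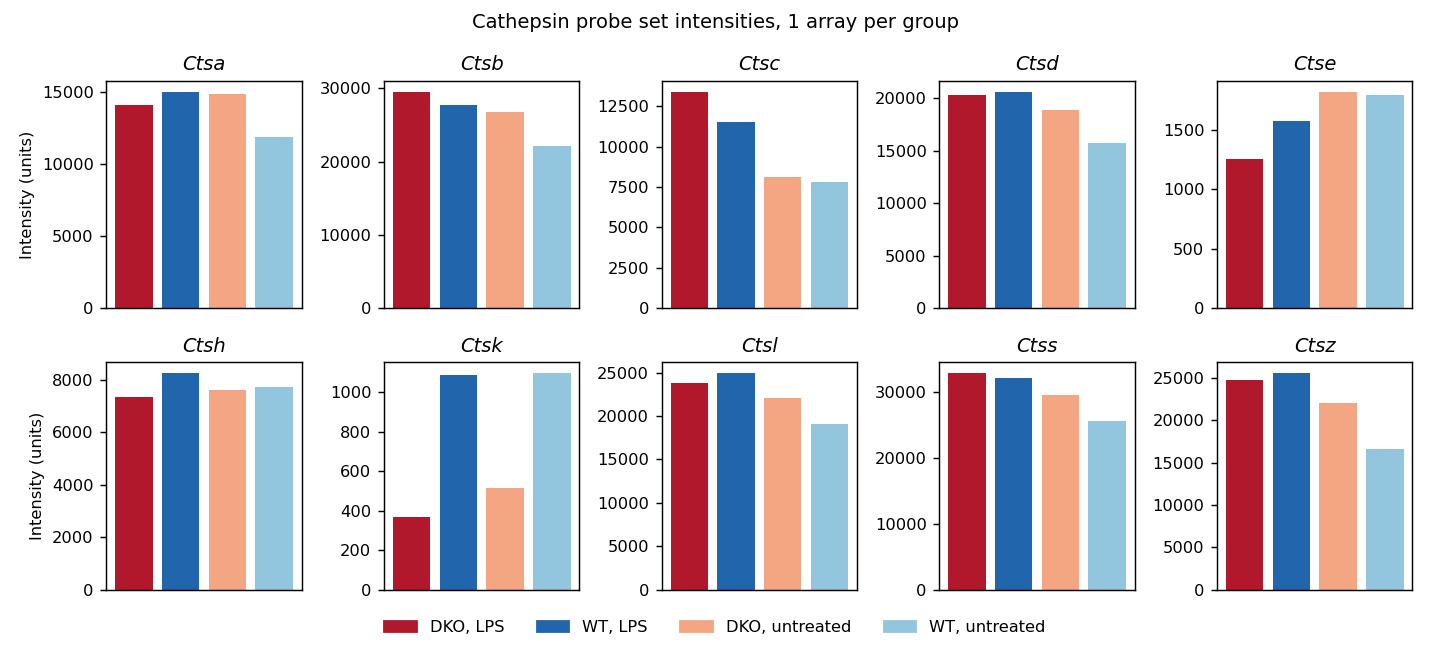
Intensity in units (vertical axes, from 0, with a separate scale per gene) of the 10 cathepsins, 1 bar per array: DKO with LPS, WT with LPS, DKO untreated and WT untreated from left to right. Ctsk reads 365 and 514 units in DKO cells, against 1089 and 1096 in WT cells. By its brightest probe set, shown here, no other cathepsin varies by more than 1.72-fold over the 4 arrays. Dimmer probe sets of Ctsc and Ctsb, not shown, vary more.

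Osteoclast genes were examined beside Ctsk because precursors grown with macrophage colony-stimulating factor can take that path. Of 10 other osteoclast markers measured, 5 passed the floor on all arrays and 3 on none, namely Ocstamp, Calcr and Oscar. Their summed intensity was 2589 units in DKO cells with LPS against 3635 in WT cells with LPS, and 4328 in untreated DKO cells against 4726 in untreated WT cells. The fusion receptor gene Dcstamp gave 73.5 units in DKO cells with LPS against 199 in WT cells with LPS, 2.71-fold lower. Without LPS it was under the floor at 18.4 units in DKO cells against 92.6 in WT cells, at least 1.75-fold lower. Of the 11 genes of the wider osteoclast list with a difference under LPS, Dcstamp alone passed 2-fold between genotypes. The share of all genes was 1.78%, with 0.934% lower and 0.845% higher. The proton pump subunit gene Atp6v0d2 stood at a log2 difference of -0.71 with LPS and -0.22 without, and at -0.35 and -0.54 by its other probe set. Acp5, the tartrate-resistant acid phosphatase of osteoclasts, gave 356 units in DKO cells with LPS against 341 in WT cells, and 409 in untreated DKO cells against 336 in untreated WT cells. Over the wider list, which leaves out Ctsk, the difference between genotypes was negative for 8 of 11 genes with LPS (median -0.28) and for 3 of 9 without (median 0.07). Over all genes the medians were -0.04 and -0.02. Depending on brightness, 43.0% to 47.1% of all genes were positive with LPS and 39.5% to 84.3% without. Without LPS the integrin gene Itgb3 stood at 0.51, Nfatc1, the master regulator of the lineage, at 0.07, and Tnfrsf11a, the receptor for the osteoclast cytokine RANKL, at -0.53, with 0.24 by its other probe set. All other probe sets of Nfatc1 were negative in that comparison, from -0.74 to -0.12. Without LPS the marker sum thus read lower in DKO cells, while the median over the wider list was slightly positive. Atp6v0d2 was the largest part of that sum, with 1995 units in untreated DKO and 2329 in untreated WT cells. With LPS it also was, with 1221 units in DKO and 1994 in WT cells. The part of a changed cell mix in the Ctsk difference was not tested.

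Ctsk and Ctss are next to each other on chromosome 3, with 0 protein-coding genes between them. Ctss, the protease that removes the invariant chain from MHC class II molecules, gave 32856 units in DKO cells with LPS against 32181 in WT cells with LPS, and 29579 in untreated DKO cells against 25669 in untreated WT cells. Its log2 differences between genotypes were 0.03 with LPS and 0.20 without. On the other side of Ctsk lies Arnt, a dimerization partner of hypoxia-inducible factors, with 0.73 and 0.20. None of the 9 neighbours above the floor, within 6 protein-coding genes on either side of the pair, passed 2-fold in either comparison. The value of Adamtsl4 with LPS, 0.15, is a bound. Among all genes 1.78% passed 2-fold with LPS and 1.45% without. Hey1 is also on chromosome 3 and Hes1 on chromosome 16, and the part of this shared chromosome in the Ctsk difference was not tested.

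**Figure D2:**
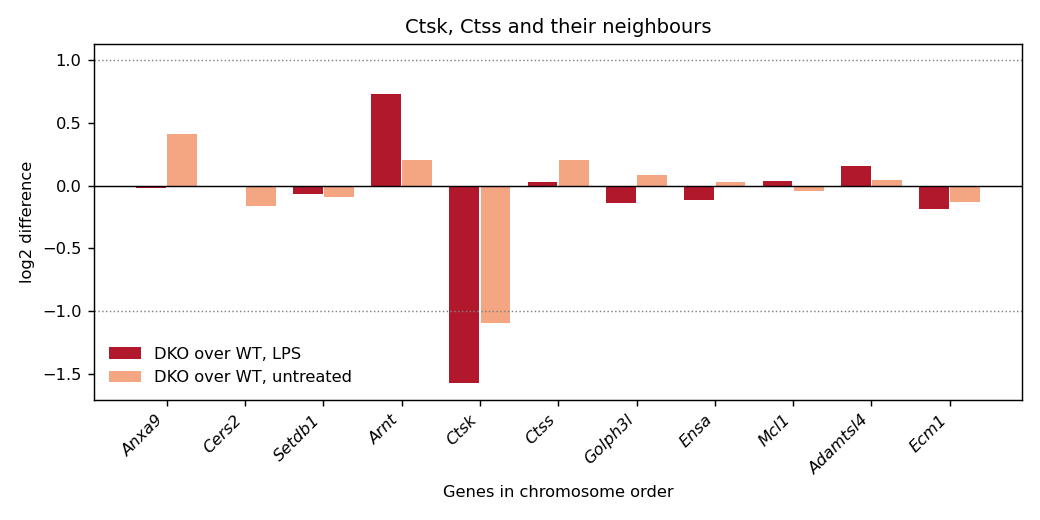
Log2 difference of DKO over WT cells (vertical axis) with LPS (dark bars) and untreated (light bars) for Ctsk, Ctss and their measured neighbours in chromosome order, with dotted lines at 2-fold. Ctsk alone passes the dotted lines, at -1.58 and -1.09, and the adjacent Ctss stands at 0.03 and 0.20.

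The genes whose 4 values ran most like those of Ctsk were sought among 9982 genes above the floor on all arrays, by Euclidean distance of log2 values centred on each gene's mean. The nearest 5 were Gstm2, a glutathione transferase gene (distance 0.17), Smco4 (0.24), Cd207, the langerin gene (0.31), Ccr1, a receptor for CC chemokines (0.34), and Zfp503 (0.35). Gstm2 is on chromosome 3, as are Ctsk and Hey1, and the part of that chromosome was not tested. Smco4 and Ccr1 are on chromosome 9, Cd207 on 6 and Zfp503 on 14. Gstm2 gave 57.2 units in DKO and 146 in WT cells with LPS, and 70.3 in DKO and 157 in WT cells without, close to the floor. Ccr1 gave 282 units in DKO and 822 in WT cells with LPS, and 393 in DKO and 1096 in WT cells without. Cd207 gave 499 units in DKO and 1329.7 in WT cells with LPS, and 632 in DKO and 1112 in WT cells without. For all 3, each DKO array lay below each WT array. This likeness rests on 4 arrays and on the genotype difference that chose Ctsk.

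Setting LPS against no treatment shows the response within each genotype. Among the cathepsins 0 of 10 passed 2-fold in either. Over all genes 9.43% of 11241 did in DKO cells, 4.66% higher and 4.77% lower, and 6.77% of 11491 in WT cells, 3.36% higher and 3.41% lower. The largest cathepsin difference in DKO cells was that of Ctsc, dipeptidyl peptidase 1, which activates the serine proteases of granules. Ctsc gave 13382 units in DKO cells with LPS and 8106 in untreated DKO cells, 1.65-fold, and 11489 units in WT cells with LPS and 7799 in untreated WT cells, 1.47-fold. Both LPS arrays read above both untreated arrays.

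The other 2 probe sets of Ctsc gave far larger ratios. The brighter of them gave 965 units in DKO cells with LPS and 88.8 in untreated DKO cells, a 10.9-fold difference. In WT cells it gave 474 units with LPS and 105 untreated, a 4.51-fold difference. The dimmer gave 404 units in DKO cells and 151 in WT cells with LPS, and was under the floor in both untreated groups. Its bounds were at least 7.63-fold in DKO cells and at least 2.85-fold in WT cells. With LPS these dimmer probe sets read 2.03-fold and 2.67-fold higher in DKO than in WT cells, against 1.16-fold for the brightest. All 3 thus read higher with LPS in both genotypes, and they disagree on the size. Which forms of the transcript each one reads was not tested.

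**Figure D3:**
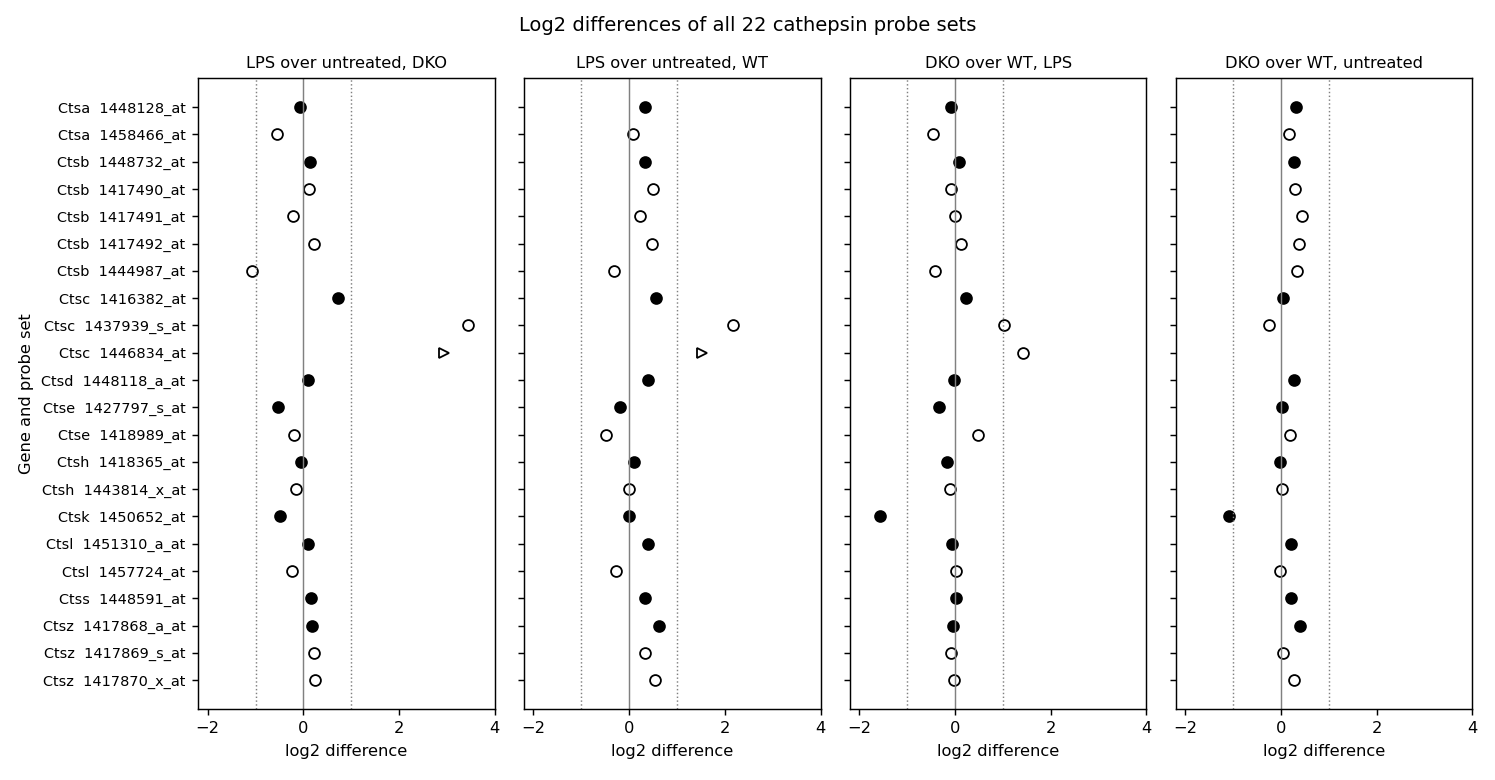
Log2 differences (horizontal axes) of the 22 cathepsin probe sets in 4 comparisons, with filled circles for the brightest probe set of each gene, open circles for the others, triangles for bounds and dotted lines at 2-fold. The dim Ctsc probe sets reach 3.44 and at least 2.93 for LPS in DKO cells, while the bright one stands at 0.72, and Ctsk lies to the left in both genotype panels.

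The other bright cathepsins all read higher with LPS in WT cells, by less than 2-fold. Ctsz, a carboxypeptidase also called cathepsin X, gave 24779 units in DKO and 25542 in WT cells with LPS, and 22019.5 in DKO and 16612 in WT cells without. The untreated WT array was the low one. Its log2 difference with LPS was 0.17 in DKO cells and 0.62 in WT cells, and its other probe sets gave 0.22 and 0.25 in DKO cells and 0.34 and 0.54 in WT cells.

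Ctsb, an endopeptidase that also removes dipeptides from chain ends, gave 29515 units in DKO and 27784 in WT cells with LPS, and 26799 in DKO and 22106 in WT cells without. Ctsl, an endopeptidase of broad specificity, gave 23769.5 units in DKO and 24927 in WT cells with LPS, and 22120.4 in DKO and 19073 in WT cells without. Ctsd, the main aspartic protease of lysosomes, gave 20323 units in DKO and 20606 in WT cells with LPS, and 18917 in DKO and 15722 in WT cells without. For all 3 the lowest array was again that of untreated WT cells. Ctsa, which also protects the lysosomal neuraminidase Neu1 and beta-galactosidase Glb1, gave 14081 units in DKO and 15027 in WT cells with LPS, and 14850.2 in DKO and 11871 in WT cells without, with the same array lowest. Its other, dim probe set agreed in sign in all 4 comparisons, at -0.54 and 0.08 for LPS in DKO and WT cells and at -0.46 and 0.17 for DKO over WT cells with LPS and without.

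Ctsb is read by 5 probe sets, which share the arrays and are no replicates. For untreated DKO over WT cells all 5 were positive, from 0.28 to 0.44. For LPS in WT cells 4 were positive, from 0.22 to 0.49, and the dimmest stood at -0.33. That one gave 473 units in DKO cells with LPS and 1001 in untreated DKO cells, 2.12-fold lower with LPS, while the brightest stood at 0.14. Ctsl showed the same kind of split for LPS in WT cells, with 0.39 for the bright probe set and -0.28 for a dim one.

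A shift of bright genes in general moved with these differences. Of the 10 cathepsins, 7 had a mean of at least 10000 units (Ctsa, Ctsb, Ctsc, Ctsd, Ctsl, Ctss and Ctsz), as did 337 other genes. For LPS in WT cells the 7 had a median log2 difference of 0.39 and the 337 others 0.23. For untreated DKO over WT cells the medians were 0.27 and 0.16. For LPS in DKO cells they were 0.14 and 0.05, and for DKO over WT cells with LPS -0.02 and -0.005. Both comparisons with sizeable medians contain the untreated WT array. Of the 344 bright genes together, 85.5% were positive for LPS in WT cells and 84.3% for untreated DKO over WT cells. Set against that band's median, Ctsc stood at 0.32 and Ctsz at 0.38 for LPS in WT cells, and Ctsb, Ctss, Ctsa, Ctsl and Ctsd between 0.08 and 0.15. For Ctsz 27 of 344 bright genes read as high or higher in that comparison and 14 of 344 for untreated DKO over WT cells. The summed intensity of 10 macrophage markers, which a few bright genes carry, was also lowest in untreated WT cells, with 130711 units in DKO and 121925 in WT cells with LPS, and 104866 in DKO and 83464 in WT cells without. The markers did not move together with LPS: Cd14, the LPS co-receptor, gave 26767 units in WT cells with LPS and 9103 in untreated WT cells, while the receptor kinase gene Mertk gave 439.9 units with LPS and 1425 untreated. Of 9 markers with a difference for LPS in WT cells, 5 were positive and 4 negative, and for untreated DKO over WT cells all 10 were positive. The parts of the untreated WT array and of the marker levels in these differences were not tested.

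**Figure D4:**
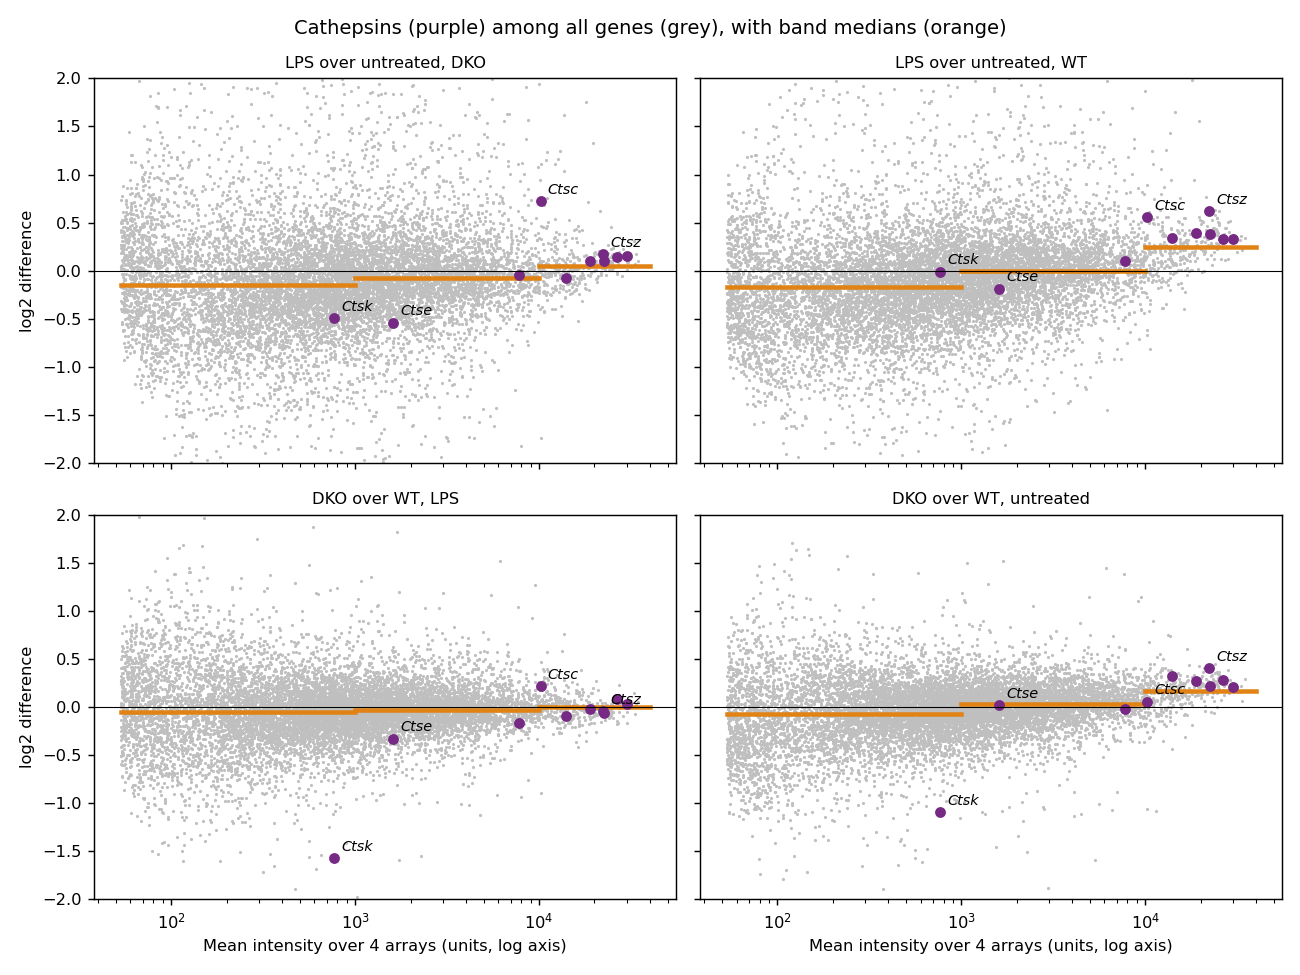
Log2 difference (vertical axes, cut at 2 on either side) against mean intensity over 4 arrays (units, log axis) for all genes (grey) and the cathepsins (purple) in 4 comparisons, with the median of genes under 1000, from 1000 to 10000 and of at least 10000 units in orange. Most bright cathepsins follow the bright genes, whose median is 0.24 for LPS in WT cells and 0.16 for untreated DKO over WT cells, and Ctsk lies far below its band between the genotypes.

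The remaining cathepsins were dimmer and varied by less than 2-fold. Ctsh, an aminopeptidase, gave 7348 units in DKO and 8247 in WT cells with LPS, and 7608 in DKO and 7713 in WT cells without. Its highest array was 1.12-fold above its lowest, and both its probe sets gave log2 differences between -0.17 and 0.10 in all 4 comparisons. Ctse, an aspartic protease of endosomes in immune cells, gave 1251 units in DKO cells with LPS and 1819 in untreated DKO cells, a log2 difference of -0.54. In WT cells it gave 1574 units with LPS and 1791 untreated, a difference of -0.19. Its other probe set gave -0.20 in DKO cells and -0.49 in WT cells, so both probe sets were negative in both genotypes. For DKO over WT cells with LPS they opposed each other, at -0.33 and 0.49.

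As a family, the median log2 difference with LPS was 0.10 in DKO cells and 0.33 in WT cells, beside -0.10 and -0.09 over all genes. It was -0.06 for DKO over WT cells with LPS and 0.21 without, beside -0.04 and -0.02 over all genes. The WT median for LPS stayed positive under 3 other scalings of the arrays, from 0.06 to 0.55, and the DKO median was -0.004 after quantile normalization. The difference between the LPS effects, DKO minus WT, was negative for 9 of 10 cathepsins, with a median of -0.28 beside -0.05 over all genes and -0.18 over the other bright genes. Of all 344 bright genes 16.9% were positive, so a negative sign was common to genes of that brightness, which 7 cathepsins share. The positive share was 38.8% for genes from 1000 to 10000 units, the range of Ctse and Ctsh. It was 49.0% for dimmer genes, the range of Ctsk. No cathepsin passed 2-fold here, and 2.03% of 9982 genes did, 1.31% upward and 0.721% downward. Ctsc was the 1 positive cathepsin, at 0.16, and Ctsk (-0.48), Ctsz (-0.45) and Ctsa (-0.42) were the lowest.

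The 13 other cathepsins of the mouse were mostly not expressed at a readable level. Of these, 10 were under the floor on all arrays, among them the neutrophil protease gene Ctsg and the lymphocyte gene Ctsw, and Ctsll3 passed it on 1 array only. Ctso gave 3375 units in DKO and 2893 in WT cells with LPS, and 4097 in DKO and 3154 in WT cells without. Ctsf gave 149 units in DKO cells with LPS against 113 in WT cells with LPS, and 229 in untreated DKO cells against 121 in untreated WT cells. Its difference without LPS was 0.91 and passed 2-fold under each of 3 other scalings. Of 11 neutrophil markers 9 were under the floor on all arrays, including Elane, Mpo and Ngp. The sums over all 11 were 1122 and 1778 units in DKO and WT cells with LPS and 1487 and 2255 in untreated DKO and WT cells. Mmp8 and S100a8, which passed the floor on all arrays, made up most of them. Mmp8 gave 588 units in DKO and 1119 in WT cells with LPS, and 1072 in DKO and 1612 in WT cells without. S100a8 gave 333 units in DKO and 465 in WT cells with LPS, and 284 in DKO and 463 in WT cells without.

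Of 12 measured cathepsin inhibitors 7 passed the floor on some array. Cst7, cystatin F, which is delivered to the lysosome and holds back Ctsc, gave 198 units in DKO cells with LPS against 72.5 in WT cells with LPS, 2.73-fold higher. Without LPS it gave 137 units in DKO cells against 94.0 in WT cells, a log2 difference of 0.54. It was the 1 inhibitor higher in DKO cells with LPS, and none was lower, beside 0.845% and 0.934% of all genes. The secreted Cst3, cystatin C, and the cytosolic Cstb, cystatin B, stood at -0.01 and -0.11 in that comparison. For LPS in WT cells they stood at 0.39 and 0.63, and both had their lowest value on the untreated WT array. The other probe set of Cstb gave 0.34. The serpin gene Serpinb6b gave 511 units in DKO cells with LPS and 1229 in untreated DKO cells, 2.41-fold lower. In WT cells it gave 848 units with LPS and 1303 untreated, a log2 difference of -0.62.

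The MiT/TFE factors, which activate lysosomal genes, split. Tfec, the macrophage-restricted member, gave 7159 units in DKO cells with LPS and 1201 in untreated DKO cells, 5.96-fold higher, and 6160.3 units in WT cells with LPS and 1467 in untreated WT cells, 4.20-fold higher. Mitf was 2.30-fold higher with LPS in both genotypes, and its other probe set gave log2 differences of 1.39 in DKO cells and 1.22 in WT cells. Tfe3 stood at 0.63 in DKO cells and 0.67 in WT cells, and Tfeb at -0.74 and -0.57. Thus 2 of 4 were higher with LPS in each genotype, 0 were lower, and none passed 2-fold between genotypes. The shares of all genes were 4.66% higher and 4.77% lower in DKO cells, and 3.36% and 3.41% in WT cells. Between genotypes 1.78% of all genes passed 2-fold with LPS and 1.45% without. Of the 7 cathepsins with a promoter window, the 2 with TCACGTGA, Ctsa and Ctsd, stood at -0.08 and 0.10 with LPS in DKO cells and at 0.34 and 0.39 in WT cells.

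None of 19 genes for processing and delivery to the lysosome passed 2-fold in any comparison by its brightest probe set, beside 1.45% to 9.43% of all genes. Lgmn, the asparaginyl endopeptidase that processes several cathepsins, stood at -0.25 with LPS in DKO cells and -0.04 in WT cells. The sorting receptor gene Scarb2 stood at -0.62 with LPS in DKO cells and at 0.03 in WT cells. Psap, whose product carries lysosomal activator proteins, stood at 0.04 and 0.37. Between genotypes, Ap1g1, an adaptor subunit of transport vesicles, and Scarb2 had the largest differences with LPS, at -0.43 and -0.41, and Psap (0.36) and Gnptab (-0.32), which makes the mannose 6-phosphate tag, without. Other probe sets opposed some of these values. With LPS, 2 further probe sets of Ap1g1 gave 0.23 and 0.14, and another was above the floor in DKO cells alone. A dim probe set of Gnptab gave 287 units in DKO cells with LPS against 136 in WT cells with LPS, a log2 difference of 1.08, while the brightest stood at -0.13. Without LPS the dim one stood at 0.17. The other probe set of Scarb2 gave -0.15 with LPS.

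Of 34 other lysosomal proteins, 1 was higher and 2 were lower with LPS in DKO cells, and 0 were higher and 1 was lower in WT cells. Over all genes 4.66% were higher and 4.77% lower in DKO cells, and 3.36% and 3.41% in WT cells. The lysosomal phospholipase gene Pla2g15 was 2.87-fold lower in DKO cells and 2.25-fold lower in WT cells, but the WT value was short of 2-fold with array medians set equal (-0.95). The sulfamidase gene Sgsh gave 445 units in DKO cells with LPS and 1225 in untreated DKO cells, 2.75-fold lower. In WT cells it was 1.99-fold lower, and its other probe set, near the floor, gave -0.27 in DKO cells. Acp2, an acid phosphatase gene, was 2.03-fold higher in DKO cells and 1.56-fold higher in WT cells, and the DKO value was short of 2-fold after quantile normalization (0.998 on the log2 scale) and by its other probe sets (0.95 and 0.77). Between genotypes none of the 34 passed 2-fold by its brightest probe set, beside 1.78% of all genes with LPS and 1.45% without. The largest differences were those of Galc, a galactosylceramide hydrolase gene, at -0.63 with LPS, and of Ppt1, a thioesterase gene, at 0.47 without. A dim probe set of Galc opposed the bright one with LPS, at 1.06. For LPS a dim probe set of Man2b1, a lysosomal mannosidase gene, stood at -1.78 in DKO cells and -1.59 in WT cells, against -0.19 and 0.11 for the brightest. Without LPS 26 of the 34 were positive, with a median of 0.18 that lay between 0.11 and 0.40 under 3 other scalings. In that comparison 84.3% of all genes of at least 10000 units were positive, 56.2% of those from 1000 to 10000 and 39.5% of dimmer ones.

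Among 15 partners and substrates of cathepsins above the floor, the inflammasome gene Nlrp3 was 24.3-fold higher with LPS in DKO cells and 17.1-fold higher in WT cells. Tlr8, an endosomal receptor, stood at -0.20 in DKO cells and was lower in WT cells (-1.01), but stood between -0.79 and -0.74 under 3 other scalings. The invariant chain gene Cd74, a substrate of Ctss, gave 7122 units in DKO cells with LPS against 8121 in WT cells with LPS, and 5603 in untreated DKO cells against 6085 in untreated WT cells. The class II genes H2-Aa, H2-Ab1 and H2-Eb1 stood between -0.35 and -0.20 for DKO over WT cells with LPS and between -0.24 and -0.01 without, by their brightest probe sets. A dim probe set of H2-Aa gave 0.47 with LPS and -1.01 without. In the osteoclast list, Dcstamp was 2.15-fold higher with LPS in WT cells, and in DKO cells its untreated value was under the floor, a bound of at least 1.39-fold. Nfatc1 was 4.51-fold lower with LPS in DKO cells and 2.92-fold lower in WT cells. The other 4 probe sets of Nfatc1 were all short of 2-fold in both.

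**Figure D5:**
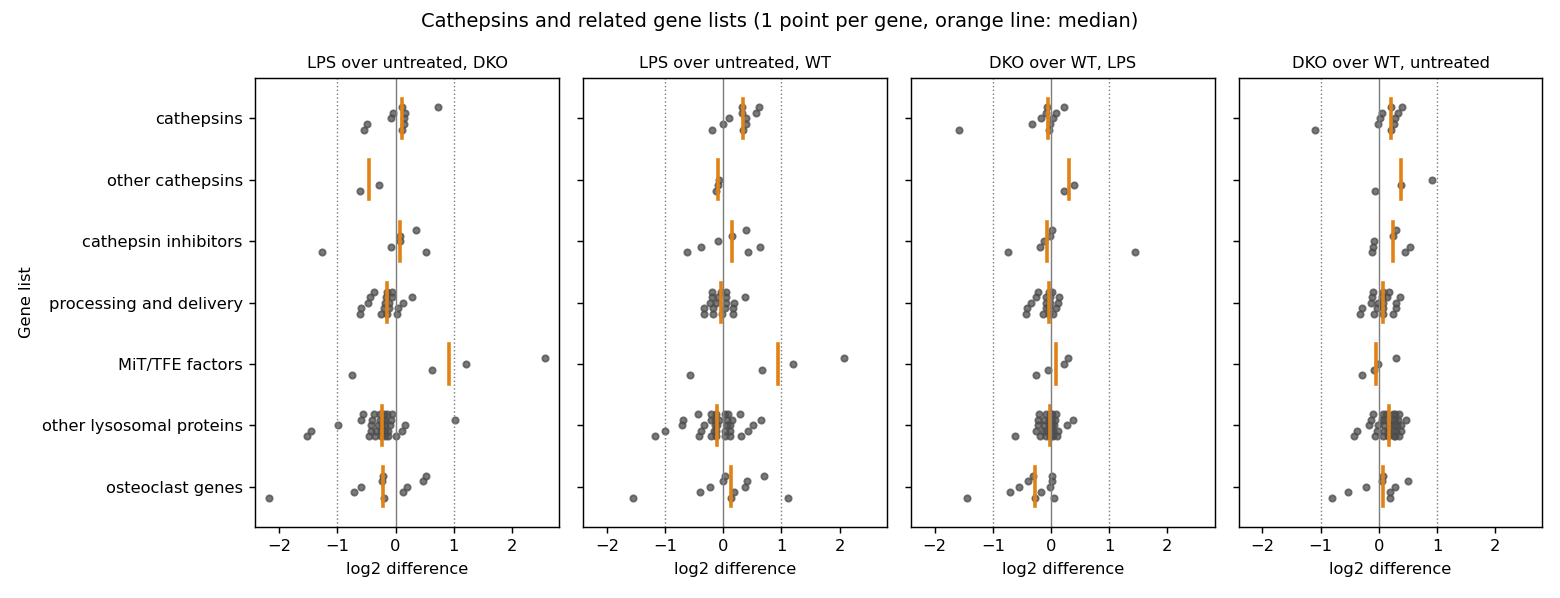
Log2 differences (horizontal axes) in 4 comparisons for the cathepsins and 6 related gene lists, 1 point per gene with a difference, with the list median in orange and dotted lines at 2-fold. Mitf and Tfec lie beyond 2-fold for LPS in both genotypes, and between genotypes the points past 2-fold are Ctsk, Cst7 and Dcstamp.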

How the data were processed

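Total RNA of 4 macrophage cultures was amplified, labelled with biotin and hybridised, per the labels' protocols. The deposited intensities are linear, 1 per probe set and array. From the values, each array had been scaled by the authors to a mean of 500.0 after trimming 2% at either end. The tool was not given in the sources used here. Scaling of this kind leaves dim and very bright probe sets free to shift between arrays. After removal of 64 control probe sets, the platform annotation gave a single gene for 34945 and several for 932, and 9160 were not listed. Of the 34945, 34741 had an Entrez identifier found in a RefSeq table of GRCm38.p6 and took its symbol, changed or not. That table was otherwise used for names, gene order and promoter sequences, because no build is named for the arrays.

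Each gene was read by its probe set with the highest mean. Values under the pooled median, 52.9 units, were set to it before log2. A difference with 1 array under it is a bound. With 1 array per group no p-value was computed, and replicates cannot be compared. For 4698 genes with a pair of probe sets above the floor, the differences read by the 2 brightest lay a median of 0.18 to 0.27 apart on the log2 scale. All named genes followed a fixed rule: the 10 members, the targeted genes, list members past 2-fold or among the 2 largest differences per comparison, nearest profiles and chromosomal neighbours. Exceptions, chosen after their values were seen, were other members of the lists and markers named for their role. The cathepsins and the lists were chosen with earlier results of these data known. The alternatives were quantile normalization, equal array medians, cyclic loess on values plus an offset of 16, other floors, the offset without a floor, other choices of probe set, and thresholds of 1.5-fold and 3-fold. Subtraction of the median of genes of like brightness was added after seeing the data. The script was tested on simulated data. Python 3.11.15, numpy 2.4.6, pandas 2.3.3, R 4.3.3 and limma 3.58.1 were used.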

Additional observations from a re-analysis of the deposited data

Results flagged for a closer look

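Some cathepsins had differences of opposite sign in the 2 genotypes or the 2 treatments. With 1 array per group, these contrasts were not tested. The LPS effect of Ctsa was -0.08 in DKO cells and 0.34 in WT cells, and that of Ctsh -0.05 and 0.10. By the other probe set of Ctsh both were negative, at -0.15 and -0.01, while that of Ctsa kept the opposite signs. The difference of DKO over WT cells was -0.09 with LPS and 0.32 without for Ctsa, -0.02 and 0.27 for Ctsd, -0.33 and 0.02 for Ctse, -0.07 and 0.21 for Ctsl, and -0.04 and 0.41 for Ctsz. The other probe set of Ctse gave 0.49 and 0.19, and that of Ctsl 0.02 and -0.02. Those of Ctsa and Ctsz kept the signs, and Ctsd has no other. For Ctsa, Ctsd, Ctsl and Ctsz the positive values stand beside a median of 0.16 over the 344 genes of at least 10000 units, as given above.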

How the results depend on the processing

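No paired analysis was possible because each group has 1 array. The count of cathepsins past 2-fold for LPS was 0 in each genotype and became 1, in each, with the median over probe sets, with the second brightest probe set and at 1.5-fold. The count between genotypes was 1 in each treatment. Without LPS it became 0 with equal array medians, at 3-fold, and with the second brightest probe set, which Ctsk lacks. With LPS it became 0 at 3-fold and 2 with the median of probe sets, where Ctsc, higher in DKO cells (1.02), joined Ctsk. With the second brightest probe set it stayed 1, but that gene was Ctsc and not Ctsk. For the difference of LPS effects 0 became 1 with the median of probe sets and with the second brightest. The family's median for LPS in WT cells moved from 0.33 to 0.055 after quantile normalization, that for LPS in DKO cells from 0.10 to -0.15 with the second brightest probe set, and that for untreated DKO over WT cells from 0.21 to 0.42 with equal array medians. That scaling put the median over all genes at 0.19 in place of -0.02 in that comparison, and at 0.12 in place of -0.09 for LPS in WT cells. Less the median of genes of like brightness, the family stood at 0.12 for LPS in WT cells and at 0.05 for untreated DKO over WT cells. Ctsk stayed at -1.58 to -1.51 with LPS over its 9 alternatives and at -1.09 to -0.88 without.

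Scaling also sets the split of all genes past 2-fold. For LPS in WT cells it was 386 higher and 392 lower, but 520 and 194 with equal medians, 428 and 255 with quantile normalization and 450 and 219 with loess. For LPS in DKO cells it was 524 and 536, and 612 and 401 after loess. For untreated DKO over WT cells it was 53 and 112, but 97 and 43, 66 and 69, and 68 and 71 under the same 3 scalings. For the difference of LPS effects it was 131 and 72, but 82 and 171 with equal medians. The share of all genes past 2-fold between untreated genotypes, 1.45%, was 4.70% with the floor at the 35th percentile, 0.69% at the 65th and 5.74% with no floor. With LPS it was 1.78%, and 4.56%, 0.83% and 5.74% under the same floors. Signal near the floor limits Gstm2, Dcstamp, Cst7, Ctsf and both dimmer probe sets of Ctsc.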
